A study of Mus musculus with 29 samples.

Results

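Stress fibres are contractile bundles of actin filaments that mesenchymal cells anchor at focal adhesions, and their assembly is a known feature of fibroblasts that turn into myofibroblasts after bile duct injury. Apart from Tgm2, which encodes a protein-crosslinking enzyme, the genes described here encode proteins that cut, bundle, anchor or sense such fibres. The genes are Gsn, Actn1, Palld, Csrp1, Fblim1, Flna, Vcl, Zyx, Pdlim7 and Tgm2. They are 10 of the 55401 gene rows in each count table. The set was picked on measured values: Gsn, Actn1, Palld, Csrp1 and Fblim1 were chosen because they moved strongly in these libraries, and the comparison in which they moved was not recorded. These 5 genes are therefore given as values and fitted differences with no test, and Flna, Vcl, Zyx, Pdlim7 and Tgm2 are tested.

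RNA was sequenced from about 1000 sorted peribiliary mesenchymal cells per library, taken from the common bile duct of individual mice, in 29 libraries of 9 groups. In the first set, all mice carried Gli1:CreERT2 with the Rosa26 lox-STOP-lox-tdTomato reporter, and there were 3 libraries from day 4 after bile duct ligation (4d BDL) and 3 from uninjured ducts. In the second set, all mice carried Pdgfra:CreERT2 with that reporter, with no ligation named. Its groups were SmoM2 (3 libraries; an active form of the Hedgehog signal transducer Smoothened), SmoFF (4; a floxed Smo), Ctnnb1FF (3; a floxed β-catenin gene), Gli2FF (2), Gli3FF (2), Gli2FFGli3FF (4; floxed alleles of the Hedgehog transcription factors) and wild type (5). The Cre drivers restrict the genetic change to cells that expressed Gli1 or Pdgfra, while ages and Cre induction are not stated by the labels. The 5 wild type libraries serve as the controls of 6 comparisons, so these comparisons are not independent of each other.

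Libraries held between 15021796 and 38301189 counts. One ribosomal RNA locus took 2.37 to 50.03% of them, with the highest shares in Gli2FFGli3FF (38.4 to 50.03%, against 13.4 to 29.4% in wild type). Wild type replicates 4 and 5 had the lowest shares of that group, 16.6 and 13.4%, and the description of replicate 5 also names SmoFF, although its title and genotype say wild type and its 29.2 CPM of Smo lay within the range of the other wild type libraries (23.8 to 38.2 CPM; 6.97 to 9.58 CPM in SmoFF). The 7 fibroblast markers summed to 19363 to 56116 CPM (read counts scaled to a common library size) in every library, against at most 124 CPM for 8 endothelial and 420.1 CPM for 8 immune markers. For 10 mesothelial markers the highest sum was 1426 CPM, in SmoFF, and for 8 cholangiocyte markers 402 CPM, in uninjured ducts. Of the targeted genes, Smo averaged 8.24 ± 1.07 CPM in SmoFF and 30.8 ± 6.11 CPM in wild type (SD), and edgeR's quasi-likelihood test called it lower (adjusted p = 3.06e-05). Gli3 was called lower in Gli3FF (adjusted p = 0.0317) and in Gli2FFGli3FF (adjusted p = 4.52e-06), and Gli2 was called lower in Gli2FFGli3FF (adjusted p = 0.00386). Gli3 was also called lower in Ctnnb1FF, where it was not targeted (edgeR adjusted p = 0.0021). It averaged 14.3 ± 4.76 CPM there, 14.5 ± 2.27 CPM in Gli3FF and 37.9 ± 6.63 CPM in wild type. In contrast, Gli2 in Gli2FF (10.004 ± 4.04 CPM, against 18.4 ± 3.59 CPM in wild type; adjusted p = 0.398) and Ctnnb1 in Ctnnb1FF (49.1 ± 5.48 CPM, against 60.9 ± 6.28 CPM in wild type; adjusted p = 0.108) were not, and a count over a whole gene need not show the loss of a floxed exon. Ptch1, a direct Hedgehog target, averaged 323 ± 80.4 CPM in SmoM2 and 31.9 ± 6.64 CPM in wild type (adjusted p = 6.15e-05). It was also called higher in Ctnnb1FF (99.2 ± 36.3 CPM, edgeR adjusted p = 0.00315), Gli3FF (113 ± 27.7 CPM, 0.00591) and Gli2FF (75.0 ± 63.9 CPM, 0.0484). The Gli2FF libraries had 120 and 29.8 CPM, the lower of them within the wild type range (21.6 to 38.8 CPM). Ptch1 was not called in Gli2FFGli3FF (62.7 ± 22.7 CPM, edgeR adjusted p = 0.0533) or in SmoFF (31.1 ± 4.16 CPM, 0.992).

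The 10 proteins fall into 4 roles. Gelsolin (Gsn) severs actin filaments and caps their ends in response to calcium. The α-actinin Actn1, palladin (Palld) and filamin A (Flna) crosslink filaments into bundles and networks. Csrp1, Fblim1 (migfilin), Zyx (zyxin) and Pdlim7 carry LIM domains, zinc-binding modules that act as docking sites on stress fibres and adhesions, and vinculin (Vcl) joins adhesion complexes to actin. Tgm2, tissue transglutaminase, crosslinks proteins by forming bonds between glutamine and lysine side chains, both inside the cell and in the matrix.

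In mm10 with GENCODE M21 all 10 are protein-coding genes on 9 chromosomes: Gsn at chr2:35256380-35307892 on the plus strand, Actn1 at chr12:80167547-80260371 on the minus strand, Palld at chr8:61511433-61902690 on the minus strand, Csrp1 at chr1:135720061-135752232 on the plus strand and Fblim1 at chr4:141576062-141606096 on the minus strand. Flna lies at chrX:74223461-74249820 on the minus strand, Vcl at chr14:20929398-21033676 on the plus strand, Zyx at chr6:42349630-42360213 on the plus strand, Pdlim7 at chr13:55495795-55513676 on the minus strand and Tgm2 at chr2:158116402-158146436 on the minus strand.

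Promoter windows of 300 bases, from 250 before to 50 after a RefSeq start, were matched for 9 of the 10 genes (15 windows) and searched on both strands for the letters of 3 motifs. Stress fibre genes are classic targets of SRF, which binds the CArG box, and of YAP with TEAD factors, and Hedgehog signalling acts through GLI factors. A CArG box stood in 1 of the 15 windows, that of Vcl, and in 1.63% of 32851 windows of all genes. The TEAD letters GGAATG or CATTCC stood in 4 of the 15 windows (Palld, Fblim1, Flna and Vcl) and in 14.7% of all windows. The GLI letters GACCACCCA or TGGGTGGTC stood in 0 of the 15 and in 0.253% of all windows, which says only that these letters are not in these windows. Upstream stretches of 2 genes are printed 5′ to 3′ from RefSeq (GRCm38.p6), Vcl because it holds the CArG box and Fblim1 because its level differed most between the Hedgehog lines of the genes shown here. For Vcl (chr14:20929148-20929397, plus strand) the capitals mark the CArG box, 227 bases before the RefSeq start, and the TEAD letters, 143 bases before it. For Fblim1 (chr4:141606097-141606302, minus strand) they mark the TEAD letters, 71 bases before the RefSeq start. The printed Fblim1 stretch stops just before the gene span given above, which begins upstream of that RefSeq start.
Vcl: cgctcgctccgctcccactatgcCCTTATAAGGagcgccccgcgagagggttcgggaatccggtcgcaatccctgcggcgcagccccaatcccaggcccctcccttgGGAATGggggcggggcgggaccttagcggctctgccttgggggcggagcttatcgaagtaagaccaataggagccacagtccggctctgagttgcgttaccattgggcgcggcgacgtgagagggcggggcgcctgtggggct
Fblim1: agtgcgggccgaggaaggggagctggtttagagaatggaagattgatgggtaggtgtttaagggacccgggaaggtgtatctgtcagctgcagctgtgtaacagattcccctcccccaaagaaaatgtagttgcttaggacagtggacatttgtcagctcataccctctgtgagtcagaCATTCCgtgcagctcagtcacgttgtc

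Levels are given as CPM on one scale for all 29 libraries (TMM-scaled by edgeR). The Gli1 and Pdgfra sets differ in Cre driver, and share no group. The ribosomal RNA locus took 2.37 to 3.87% of counts in Gli1 libraries and 8.56 to 50.03% in Pdgfra ones. Where the order of groups below crosses the sets, a difference between groups cannot be told apart from one between sets. Per kilobase of exon, Gsn had the highest level of the 10 genes in 8 of the 9 groups, at 5243 CPM per kilobase in uninjured ducts and 2591 in wild type. After ligation Csrp1 was highest, at 670.2 CPM per kilobase, and Gsn stood at 102. Ordered by mean CPM over the groups, 4d BDL stood first for Actn1, Palld, Csrp1, Flna and Pdlim7, and in each case its lowest library lay above the highest library of the group next in order. Gli3FF stood first for Fblim1 and Tgm2, again with no overlap with the next group, 4d BDL for Fblim1 and SmoM2 for Tgm2. Uninjured ducts stood first for Gsn, above SmoFF with no overlap, and last for Actn1, Fblim1, Flna, Vcl and Tgm2. The uninjured libraries overlapped the group above them for Fblim1, Flna and Tgm2 but not for Actn1 or Vcl. For Vcl and Zyx no group stood clear at the top: Gli2FF, Ctnnb1FF and SmoM2 overlapped for Vcl, and uninjured ducts, SmoFF and wild type overlapped for Zyx.

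**Figure D1:**
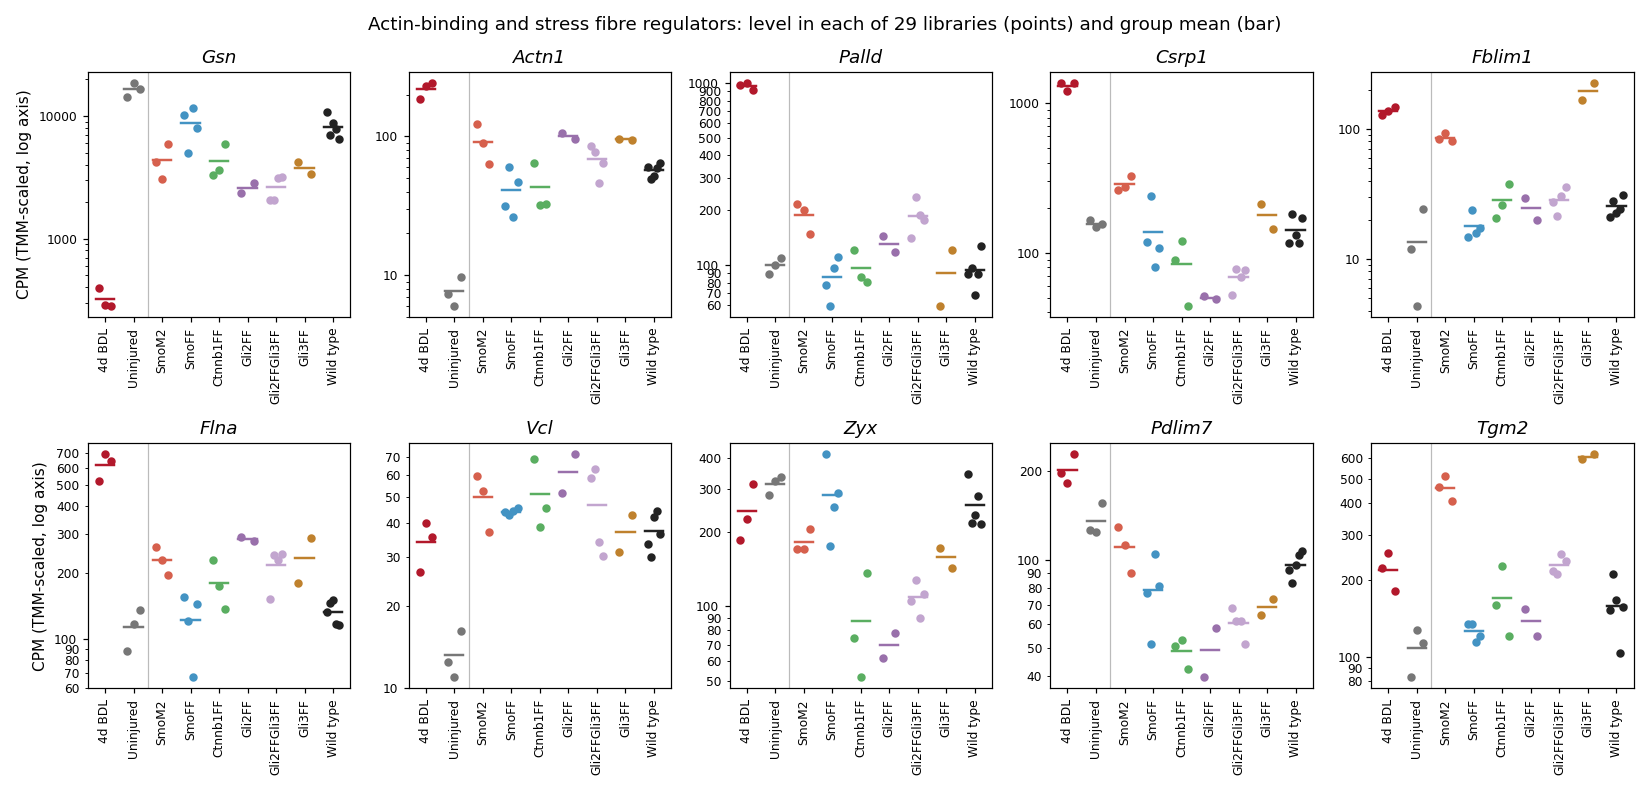
CPM of each of the 10 genes (log axis) in every library, 1 point per library with a bar at the group mean, for 4d BDL, uninjured, SmoM2, SmoFF, Ctnnb1FF, Gli2FF, Gli2FFGli3FF, Gli3FF and wild type. Gsn lies between 281.9 and 397.6 CPM in the 3 ligated libraries and at 2050.5 CPM or more in every other library, and Fblim1 and Tgm2 peak in Gli3FF.

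Ligation came with less Gsn and with more transcript of most of the other genes, the comparison that asks how marked duct mesenchyme differs 4 days after cholestatic injury. Gsn had 397.6, 287.8 and 281.9 CPM in 4d BDL libraries, against 14295, 18638 and 16726 CPM in uninjured ones. The groups lay far apart, and the fitted difference of -5.70 (SE 0.24) on the log2 scale ranked 640 by size among 17150 genes tested. The 2 picked crosslinkers went the other way. Actn1 had 186.9, 231 and 242 CPM in 4d BDL libraries, against 7.37, 6.01 and 9.74 CPM in uninjured ones, a difference of 4.82 (SE 0.25) that ranked 770. Palld had 975, 1001.5 and 915 CPM in 4d BDL libraries, against 89.2, 99.7 and 109 CPM in uninjured ones, a difference of 3.27 (SE 0.15). For both genes the 3 ligated animals were alike and all above the 3 uninjured ones.

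Among the LIM proteins, Csrp1 had 1364, 1212 and 1357 CPM in 4d BDL libraries, against 166, 148 and 157 CPM in uninjured ones, a log2 difference of 3.05 (SE 0.15). Fblim1, which links filamin to adhesions, had 129, 138 and 147 CPM in 4d BDL libraries, against 11.98, 4.34 and 24.4 CPM in uninjured ones, a difference of 3.34 (SE 0.59). The uninjured animals differed widely in Fblim1, and the difference was 4.07 without the highest of them, replicate 3, and 2.93 without the lowest, replicate 2. All of these differences belong to the picked genes and are descriptions.

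Of the 5 tested genes, 3 rose after ligation and 0 fell; of all genes tested in this comparison, 7.77% were called higher and 5.8% lower. Flna had 519.5, 690.2 and 642 CPM in 4d BDL libraries, against 88.5, 117 and 135 CPM in uninjured ones, a 5.44-fold ratio of means (log2 2.43, SE 0.21; edgeR adjusted p = 0.00207). It stayed below the threshold of 0.05 with each of the 6 libraries left out. Vcl had 26.5, 40.2 and 35.6 CPM in 4d BDL libraries, against 12.4, 10.9 and 16.1 CPM in uninjured ones (log2 1.36, SE 0.27; edgeR adjusted p = 0.0242). Tgm2 had 222, 254 and 182 CPM in 4d BDL libraries, against 83.1, 128 and 114 CPM in uninjured ones (log2 1.01, SE 0.23; edgeR adjusted p = 0.032). The groups did not overlap for these 3 genes, but leaving out any 1 of the 6 libraries lost the Tgm2 call (adjusted p 0.051 to 0.129). The Vcl call was lost without uninjured replicate 1 (0.0508) or 2 (0.0615) and without 4d BDL replicate 2 (0.114) or 3 (0.0986).

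Pdlim7 and Zyx did not pass the test. Pdlim7 had 197, 183 and 229 CPM in 4d BDL libraries, against 127, 124 and 156 CPM in uninjured ones (log2 0.57, SE 0.16; edgeR adjusted p = 0.0705). Zyx had 187, 227 and 315 CPM in 4d BDL libraries, against 283, 324 and 334 CPM in uninjured ones, and its groups overlapped (log2 -0.39, SE 0.21; edgeR adjusted p = 0.323). Of the 5 tested genes, 4 were higher in 4d BDL with no overlap between the groups and 0 lower; among all genes 22.6% were higher and 14.7% lower without overlap.

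The role lists hold 136 further symbols of actin regulation, of which 134 were found and 121 tested here. After ligation 44 rose and 11 fell, where 7.77% of all genes tested were called higher and 5.8% lower. The median log2 difference of the listed genes was 0.59, against 0.07 over all genes tested. The 55 calls became 33, 24 and 23 without ligated replicates 1, 2 and 3, and 23 with a replicate block. Actins, myosins and tropomyosins had 14 of 19 called higher and 1 lower: Acta2, smooth muscle actin, averaged 2935 ± 297 CPM in 4d BDL and 46.8 ± 14.3 CPM in uninjured ducts, and Myl9, the myosin light chain whose phosphorylation drives contraction, 728 ± 17.0 and 66.3 ± 2.31 CPM (edgeR adjusted p = 0.000508 for both). The crosslinkers had 7 of 15 called higher and 0 lower, led by Cnn2, a calponin, at 608 ± 46.0 CPM in 4d BDL and 66.8 ± 12.04 CPM in uninjured ducts (adjusted p = 0.000678). The other severing and capping proteins had 7 of 15 higher and 1 lower, among them the filament-severing Cfl1 (1238 ± 104 CPM in 4d BDL, 369 ± 59.1 CPM in uninjured ducts; adjusted p = 0.00328) and the monomer-binding Pfn1 (1080 ± 44.5 and 383 ± 51.4 CPM in the same order; adjusted p = 0.00365). In the gelsolin family, leaving Gsn aside, 0 of 6 genes were called by edgeR; 1 was lower at an unadjusted p under 0.05, and DESeq2 called 1 lower.

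LIM proteins went both ways, with 7 of 23 called higher and 6 lower, against 7.77 and 5.8% of all genes tested. Fhl2, a LIM-only cofactor, averaged 103 ± 14.03 CPM in 4d BDL and 7.90 ± 2.95 CPM in uninjured ducts (adjusted p = 0.00258), whereas Lims2, a partner of integrin-linked kinase, averaged 17.7 ± 3.11 CPM in 4d BDL and 150.4 ± 8.38 CPM in uninjured ducts (adjusted p = 0.000727). Its close relative Lims1 was called higher (254 CPM in 4d BDL, 81.1 CPM in uninjured ducts; adjusted p = 0.00357). Focal adhesion genes had 6 of 20 higher and 1 lower, with the adaptor Bcar1 at 62.9 ± 14.4 CPM in 4d BDL and 5.49 ± 0.815 CPM in uninjured ducts (adjusted p = 0.00136).

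Cell type markers moved with this comparison. The 11 smooth muscle and pericyte markers, Acta2 among them, summed to 3388 to 3986 CPM in 4d BDL and 168 to 256 CPM in uninjured ducts, with 5 called higher and 0 lower. The 8 adventitial fibroblast markers summed to 752 to 1363 CPM in 4d BDL and 6048 to 8559 CPM in uninjured ducts, with 8 called lower. The 10 mesothelial markers summed to 66.9 to 99.4 CPM in 4d BDL and 260.4 to 1154 CPM in uninjured ducts, with 6 called lower. The 7 fibroblast markers summed to 53851 to 56116 CPM in 4d BDL and 26239 to 30855 CPM in uninjured ducts. Of these, 4 were called higher and 2 lower. The 8 endothelial markers summed to 7.59 to 15.1 and 98.1 to 124 CPM in the same order, with 1 called lower. In bulk RNA fewer cells of a type and less RNA per cell cannot be told apart, and the part of these markers in the values of the 10 genes was not tested.

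**Figure D2:**
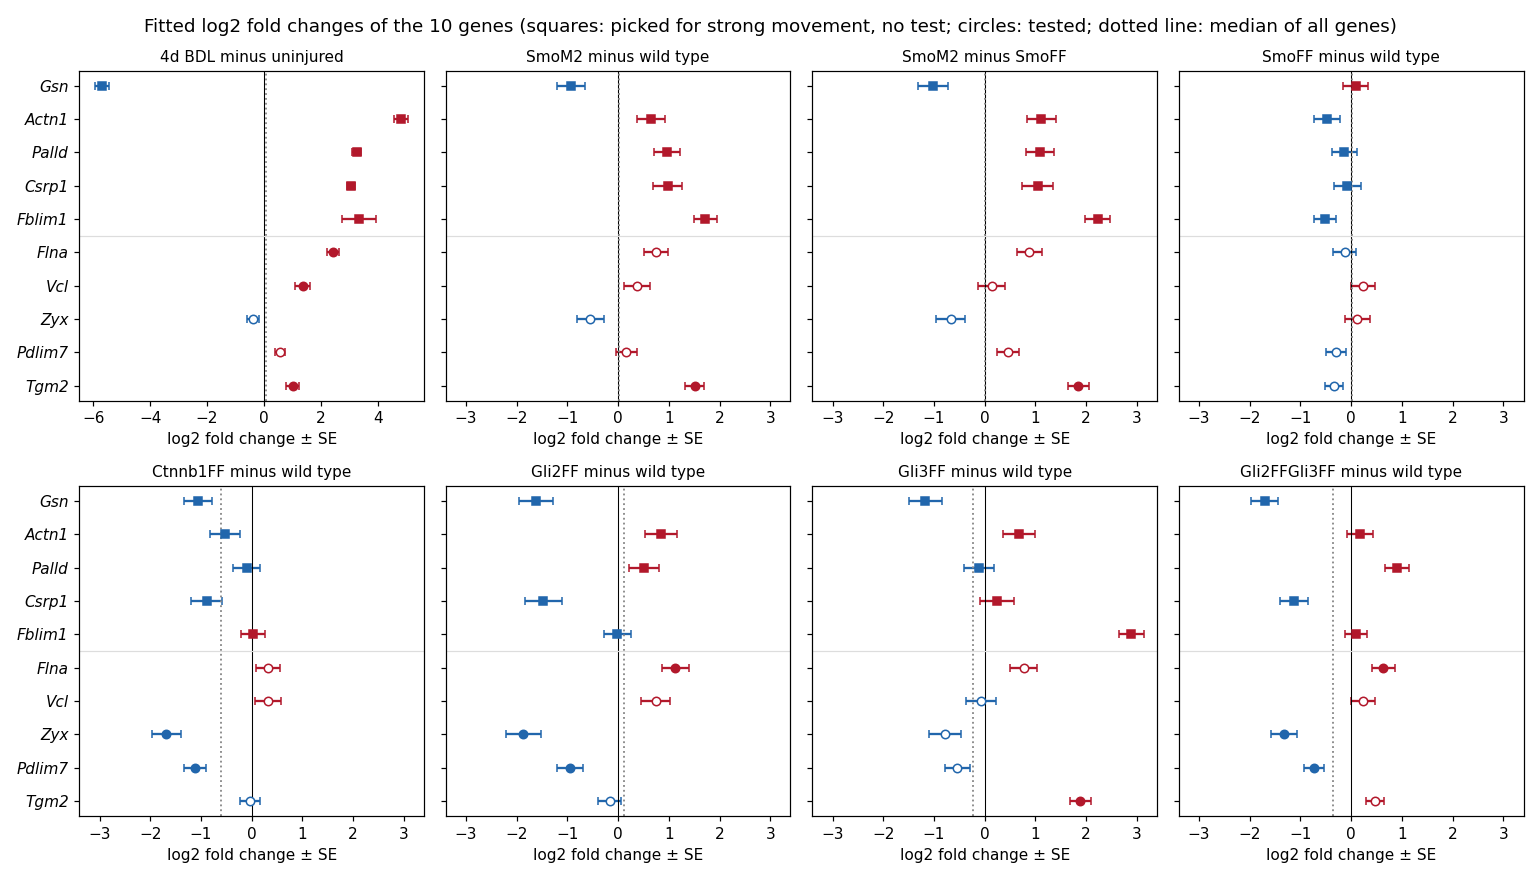
Fitted log2 difference (point) with its standard error (bar) for the 10 genes in 8 comparisons, on edgeR's scale; squares are the 5 picked genes, given with no test, filled circles are tested genes called higher (red) or lower (blue), open circles were not called, and the dotted line is the median over all genes. Ligation has the widest spread, with Gsn at -5.70 and Actn1 at 4.82, and Tgm2 is called in 4d BDL, in SmoM2 against both wild type and SmoFF, and in Gli3FF.

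Active Smoothened came with more Tgm2 and Fblim1. Tgm2 had 463, 512 and 410.3 CPM in SmoM2 libraries, against 153, 211, 167, 103 and 157 CPM in wild type. All SmoM2 libraries lay well above all wild type ones, at 2.92 times their mean (log2 1.51, SE 0.19; edgeR adjusted p = 0.000594). Of the 5 tested genes, 1 rose and 0 fell, against 0.127% of all genes called higher and 0.0779% called lower. Fblim1 had 83.6, 93.3 and 80.4 CPM in SmoM2 libraries, against 20.9, 28.0, 22.5, 24.0 and 31.0 CPM in wild type, a log2 difference of 1.72 (SE 0.23). It had the largest difference of the picked genes here.

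The other picked genes differed less between SmoM2 and wild type, with log2 differences of 0.98 (SE 0.29) for Csrp1, 0.96 (SE 0.26) for Palld, 0.64 (SE 0.28) for Actn1 and -0.93 (SE 0.28) for Gsn. Csrp1 had 263, 275.5 and 327 CPM in SmoM2 libraries, against 116, 181, 131, 117 and 169.8 CPM in wild type, with no overlap. Gsn had 4212, 3040 and 5947 CPM in SmoM2 libraries, against 10852, 7039, 8745, 7811 and 6453 CPM in wild type, also with no overlap, although SmoM2 replicate 3 came close. Flna had 261, 229 and 196 CPM in SmoM2 libraries, against 133, 145, 151, 117 and 115 CPM in wild type, and was not called (edgeR adjusted p = 0.3), although a fit of only these 2 groups gave 0.0476. Vcl, Zyx and Pdlim7 were not called either (adjusted p 0.674 to 1). Without overlap, 2 of the tested genes (Flna and Tgm2) were higher in SmoM2 and 1 (Zyx) lower, against 4.61 and 3.51% of all genes tested.

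In SmoFF, where floxed Smo counts were low, 0 of the 5 tested genes were called by edgeR, 0 had an unadjusted p under 0.05 and DESeq2 called 0; of all genes 0.287% were called higher and 1.26% lower. Tgm2 had 134.5, 134, 114.5 and 121 CPM in SmoFF libraries, within the wild type range (log2 -0.34, SE 0.18; edgeR adjusted p = 0.417). Fblim1 had 14.7, 23.6, 15.9 and 17.3 CPM in SmoFF libraries and overlapped wild type (log2 -0.51, SE 0.22). Gsn had 10148, 4985, 11729 and 8005 CPM in SmoFF libraries, on both sides of the wild type range, and Csrp1 had 119, 239.9, 81.1 and 108 CPM. Groups overlapped for all 10 genes, while 2.17% of all genes were higher and 2.58% lower without overlap. The 10 mesothelial markers summed to 582 to 1426 CPM in SmoFF and 169.5 to 399.7 CPM in wild type, with 0 called. Their part in the values of the 10 genes was not tested.

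Set against SmoFF, a comparison that uses no wild type library, SmoM2 again had more Tgm2, at 3.67 times the SmoFF mean (log2 1.84, SE 0.21; edgeR adjusted p = 2.4e-05). It was the 1 called of the 5 tested genes, where 1.74% of all genes were called higher and 0.89% lower. Fblim1 differed by 2.23 (SE 0.25) on the log2 scale, Actn1 by 1.12 (SE 0.29), Palld by 1.09 (SE 0.27), Csrp1 by 1.05 (SE 0.31) and Gsn by -1.02 (SE 0.29). Flna was higher in every SmoM2 library than in any SmoFF one (155, 121, 67.0 and 143 CPM in SmoFF), with an edgeR adjusted p of 0.0609. Flna and Tgm2, 2 of the tested genes, were higher in SmoM2 without overlap and 0 lower, against 11.2 and 5.16% of all genes tested. The 7 fibroblast markers summed to 33766 to 37914 CPM in SmoM2 and 19363 to 21761 CPM in SmoFF, with 4 called higher, and 4 were also called lower in SmoFF than in wild type (27356 to 39376 CPM). Their part in these differences was not tested.

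Of the 127 listed actin genes, the median log2 difference in SmoM2 relative to wild type was 0.05, against 0.02 over all genes. In that comparison 2 of the 127 rose and 0 fell, against 0.127 and 0.0779% of all genes tested. Both belong to the contractile list: Myl9 averaged 121 ± 6.59 CPM in SmoM2 and 39.7 ± 9.35 CPM in wild type (edgeR adjusted p = 0.0234), and Acta2 197 ± 13.2 CPM in SmoM2 and 31.5 ± 2.86 CPM in wild type (adjusted p = 0.0313). The count was 0 with any 1 of the SmoM2 or wild type libraries left out, except wild type replicate 2, without which it was 1. Relative to SmoFF, 6 rose and 2 fell, against 1.74 and 0.89% of all genes tested (median 0.03, against 0.00 over all genes). Among them Tpm2, a tropomyosin, and Cnn2 rose, and Cap1, a cofactor of cofilin, and Lims2 fell. SmoFF itself had 0 of 127 called by edgeR relative to wild type, 5 higher and 9 lower at an unadjusted p under 0.05, and 4 called by DESeq2. Smooth muscle and pericyte markers summed to 533 to 600 CPM in SmoM2 and 243 to 378 CPM in wild type (1 called higher). The 8 adventitial markers summed to 4275 to 6379 CPM in SmoM2 and 6944 to 9127 CPM in wild type, with 0 called. The part of either set in the values was not tested.

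The highest Tgm2 and Fblim1 levels of the Pdgfra set were in a Gli line, Gli3FF. Gli3 is chiefly known as a repressor of Hedgehog targets. Tgm2 had 598 and 623 CPM in Gli3FF libraries, against 103 to 211 CPM in the 5 wild type ones, a 3.86-fold ratio (log2 1.89, SE 0.21; edgeR adjusted p = 1.25e-05). With either Gli3FF library left out the adjusted p was at most 0.000502, in fits where the spread comes from the other groups. Fblim1 had 167 and 225 CPM in Gli3FF libraries, against 20.9 to 31.0 CPM in wild type, a log2 difference of 2.90 (SE 0.25). The 2 Gli3FF animals were both far above every wild type animal for both genes.

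Of the 5 tested genes, 1 rose in Gli3FF and 0 fell, against 2.09% of all genes called higher and 2.36% lower. Flna had 179.7 and 287 CPM in Gli3FF libraries, both above the wild type range (edgeR adjusted p = 0.114). Zyx had 173 and 143 CPM in Gli3FF libraries, both below the wild type range of 217 to 345 CPM (adjusted p = 0.192). Pdlim7 (adjusted p = 0.237) and Vcl (0.955) were not called. Of the 5 tested genes, 2 (Flna and Tgm2) were higher without overlap and 2 (Zyx and Pdlim7) lower, against 11.7 and 11.9% of all genes tested. Palld was 59.4 and 120.3 CPM in the Gli3FF libraries, and its log2 difference of -0.11 (SE 0.30) turned to 0.34 without replicate 1.

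Where Gli2 was floxed as well, the Gli3FF level was not seen. Tgm2 had 217, 211, 253 and 237 CPM in Gli2FFGli3FF libraries, against 598 and 623 CPM in Gli3FF. Fblim1 had 27.2, 21.2, 30.4 and 35.4 CPM in Gli2FFGli3FF libraries, against 167 and 225 CPM in Gli3FF. This pairing of groups was chosen after the levels were seen, so the fitted log2 differences of -1.42 (SE 0.23) for Tgm2 and -2.80 (SE 0.27) for Fblim1 carry no test. Csrp1 also lay lower in Gli2FFGli3FF than in Gli3FF (-1.37, SE 0.34), at 52.0, 77.7, 69.3 and 77.2 CPM, against 211 and 145 CPM in Gli3FF. The LIM proteins Csrp1 and Fblim1 thus had different profiles: Csrp1 in Gli3FF overlapped wild type, whereas Fblim1 did not.

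Relative to wild type, 1 of the 5 tested genes rose in Gli2FFGli3FF and 2 fell, against 7.6% of all genes called higher and 9.56% lower. Zyx had 105, 128.5, 90.02 and 112.5 CPM in Gli2FFGli3FF libraries, against 345, 219, 234, 282 and 217 CPM in wild type (log2 -1.32, SE 0.25; edgeR adjusted p = 0.000865). Pdlim7 had 68.4, 61.8, 61.5 and 51.3 CPM in Gli2FFGli3FF libraries, against 92.0, 83.1, 95.4, 103 and 107 CPM in wild type (log2 -0.74, SE 0.19; edgeR adjusted p = 0.0112). Every Gli2FFGli3FF library lay below every wild type one for both genes. Relative to the median gene, which differed by -0.35, the differences were -0.97 for Zyx and -0.38 for Pdlim7. Over genes averaging a log2 CPM of 3 or more, the median was -0.005. Flna had 152.3, 241, 228 and 243 CPM in Gli2FFGli3FF libraries and was called higher by a narrow margin (log2 0.64, SE 0.22; edgeR adjusted p = 0.0498), which was lost in 8 of 9 fits with 1 library left out (0.0607 to 0.131). Without Gli2FFGli3FF replicate 1, the lowest, the adjusted p was 0.0169. Tgm2 was above wild type in all 4 libraries and not called (log2 0.47, SE 0.18; adjusted p = 0.0783), except without wild type replicate 2, the highest (0.0343).

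The picked genes differed in direction in Gli2FFGli3FF. Gsn had 2050.5, 2077, 3154 and 3214 CPM in Gli2FFGli3FF libraries, 0.321 times the wild type mean (log2 -1.71, SE 0.26). Palld had 141, 235, 189 and 177 CPM, 1.98 times the wild type mean (log2 0.90, SE 0.24), and every library lay above the wild type range. Csrp1 stood at 0.484 times the wild type mean (log2 -1.12, SE 0.28), and Actn1 (0.18, SE 0.26) and Fblim1 (0.10, SE 0.22) overlapped wild type. Without overlap, 2 of the tested genes (Flna and Tgm2) were higher and 2 (Zyx and Pdlim7) lower, against 9.72 and 9.67% of all genes tested.

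In Gli2FF, 1 of the 5 tested genes rose and 2 fell, against 2.58% of all genes called higher and 3.26% lower. Zyx had 61.7 and 77.7 CPM in Gli2FF libraries, the lowest mean of the 9 groups (log2 -1.87, SE 0.34 against wild type; edgeR adjusted p = 0.00204). Pdlim7 had 39.6 and 58.5 CPM (log2 -0.95, SE 0.25; adjusted p = 0.0262) and Flna 289 and 277 CPM (log2 1.13, SE 0.26; adjusted p = 0.0119). All 3 calls were lost without Gli2FF replicate 1 (adjusted p = 0.0887 for Zyx, 0.429 for Pdlim7 and 0.221 for Flna), and the Flna call was also lost without replicate 2 (0.106). Gsn had 2374 and 2846 CPM and Csrp1 51.4 and 49.1 CPM in Gli2FF, both below every wild type library, and Actn1 had 105.5 and 95.4 CPM, above every wild type library. Without overlap, 2 of the tested genes (Flna and Vcl) were higher and 2 (Zyx and Pdlim7) lower, against 20.7 and 14.1% of all genes tested.

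Flna lies on the X chromosome, and the libraries differ in Xist, the transcript of the inactive X. Xist was 0 to 0.172 CPM in the wild type libraries, 0 to 0.0955 CPM in SmoM2, 6.65 to 51.4 CPM in Gli2FFGli3FF and 16.5 to 67.3 CPM in Ctnnb1FF. In Gli2FF the library with 0.333 CPM of Xist had 289 CPM of Flna, and the library with 997 CPM of Xist had 277 CPM of Flna. In Gli3FF the library with 0.357 CPM of Xist had 179.7 CPM of Flna, and that with 270.1 CPM of Xist had 287 CPM. In SmoFF the libraries with 266 and 403 CPM of Xist had 155 and 143 CPM of Flna, and those with 0.0315 and 0 CPM had 121 and 67.0 CPM. Every Ctnnb1FF and Gli2FFGli3FF library had more Xist than any wild type library, so Xist status and genotype cannot be told apart in those comparisons. The part of Xist status in the values of Flna, or of the other genes such as Zyx and Pdlim7, was not tested.

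Among the role lists, in Gli3FF 5 of 127 genes rose and 6 fell, against 2.09 and 2.36% of all genes tested. The median log2 difference was -0.05, against -0.22 over all genes and -0.008 over those averaging a log2 CPM of 3 or more. Of the 5 that rose, 4 were contractile, and of the 18 contractile genes tested 1 fell. Myl9 averaged 269 ± 31.3 CPM in Gli3FF and 39.7 ± 9.35 CPM in wild type (edgeR adjusted p = 3e-05). Mylk, the kinase that phosphorylates this light chain, averaged 107 and 23.03 CPM (adjusted p = 0.000843). Among those that fell, Pdlim1, another LIM protein, averaged 11.8 CPM in Gli3FF and 80.7 CPM in wild type (adjusted p = 0.000324). The list count of 11 became 5 or 7 without Gli3FF replicate 1 or 2, and DESeq2 called 25.

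In Gli2FFGli3FF 22 of 127 rose and 21 fell, against 7.6 and 9.56% of all genes tested. The median was -0.06, against -0.35 over all genes and -0.005 over those averaging a log2 CPM of 3 or more. Of 18 contractile genes 9 rose and 0 fell, among them Acta2 (194 ± 81.2 CPM in Gli2FFGli3FF, 31.5 ± 2.86 CPM in wild type; edgeR adjusted p = 0.0011). The LIM list had 3 higher and 6 lower, with Tgfb1i1, a paxillin relative, at 41.9 ± 4.87 CPM in Gli2FFGli3FF and 106 ± 8.59 CPM in wild type (adjusted p = 2.41e-05). Mrtfa, the actin-sensing cofactor of SRF, averaged 10.9 CPM in Gli2FFGli3FF and 31.9 CPM in wild type (adjusted p = 0.000681). In Gli2FF 9 rose and 15 fell, against 2.58 and 3.26% of all genes tested. The median was 0.01, against 0.12 over all genes and -0.08 over those averaging a log2 CPM of 3 or more. Of 18 contractile genes, 0 rose there and 2 fell. Among these was Actb, cytoplasmic actin, at 956 ± 232 CPM in Gli2FF and 2789.5 ± 482 CPM in wild type (edgeR adjusted p = 0.00191). Without Gli2FF replicate 1 or 2 the list count of 24 became 1 or 13.

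Adventitial markers were lower with Gsn in these lines: their sum was 1657 to 3764.5 CPM in Gli2FF, 2761 to 3836.5 CPM in Gli3FF, 2696 to 5038 CPM in Gli2FFGli3FF and 6944 to 9127 CPM in wild type, with 5 of 8 called lower in each line. Of all genes tested, 3.26, 2.36 and 9.56% were called lower in these lines, in the same order. Smooth muscle and pericyte markers summed to 690 to 713 CPM in Gli3FF and 422 to 839 CPM in Gli2FFGli3FF, against 243 to 378 CPM in wild type, with Cnn1 at 0 in Gli3FF. In Gli3FF the mesothelial markers summed to 40.9 to 57.5 CPM, against 169.5 to 399.7 CPM in wild type (4 called lower), and the fibroblast markers to 44087 to 54748 CPM, against 27356 to 39376 CPM (2 called higher). There 2 endothelial and 2 cholangiocyte markers were called lower. The part of these sets in the values of the 10 genes was not tested.

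**Figure D3:**
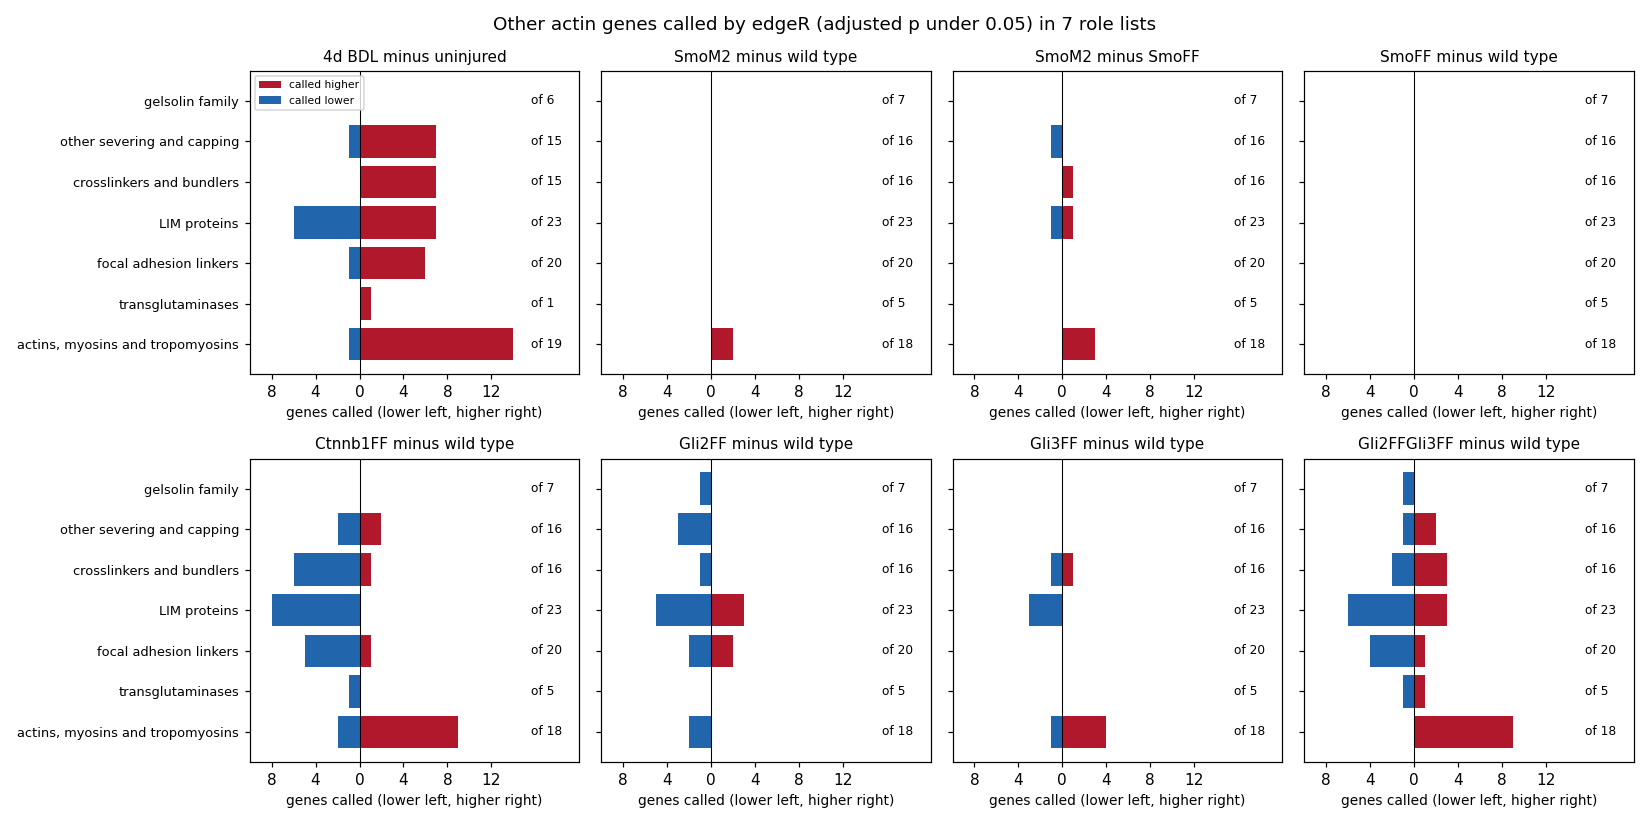
Number of genes called higher (right, red) and lower (left, blue) by edgeR in each of 7 role lists of actin regulation, in 8 comparisons, with the number tested beside each list. Contractile genes (actins, myosins and tropomyosins) are called mostly higher after ligation, where 14 of 19 were, and in Gli2FFGli3FF and Ctnnb1FF, where 9 of 18 were in each.

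With β-catenin floxed, Zyx and Pdlim7 fell, and 0 of the 5 tested genes rose; of all genes, 8.04% were called higher and 11.9% lower. Zyx had 74.5, 51.6 and 136 CPM in Ctnnb1FF libraries, against 345, 219, 234, 282 and 217 CPM in wild type (log2 -1.69, SE 0.29; edgeR adjusted p = 0.000211). Pdlim7 had 50.6, 53.0 and 42.1 CPM in Ctnnb1FF libraries, against 92.0, 83.1, 95.4, 103 and 107 CPM in wild type (log2 -1.11, SE 0.22; edgeR adjusted p = 0.000877). Every Ctnnb1FF library lay below every wild type one for both genes, and both calls held with each of the 8 libraries left out. The median gene differed by -0.61 here, and relative to it the differences were -1.08 for Zyx and -0.50 for Pdlim7. Over the better expressed genes, those averaging a log2 CPM of 3 or more, the median was -0.10. These libraries also had fewer genes with a count, 15892 to 17726, against 21127 to 24483 in wild type.

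Flna (229, 174 and 136 CPM in Ctnnb1FF), Vcl (68.5, 38.7 and 45.6 CPM) and Tgm2 (160.3, 227 and 121 CPM) overlapped wild type and were not called (edgeR adjusted p = 0.319, 0.345 and 0.941). Gsn had 3308, 3613 and 5881 CPM in Ctnnb1FF libraries, all below the wild type range (log2 -1.06, SE 0.28), while Fblim1, Palld, Actn1 and Csrp1 overlapped it. Without overlap, 0 of the tested genes were higher and 2 (Zyx and Pdlim7) lower, against 11.5% and 13.3% of all genes tested. Of the 127 listed genes 14 rose and 29 fell, against 8.04 and 11.9% of all genes tested, with 0 of the LIM list higher and 8 lower. The median of the listed genes was -0.33, against -0.61 over all genes and -0.10 over those averaging a log2 CPM of 3 or more. Mrtfa averaged 8.44 ± 2.57 CPM in Ctnnb1FF and 31.9 ± 2.67 CPM in wild type (adjusted p = 0.000203), and the actin bundler Fscn1 26.1 ± 8.83 and 107 ± 7.12 CPM in the same order (adjusted p = 7.89e-05). Contractile genes had 9 of 18 higher and 2 lower, led by Myl6, a non-muscle myosin light chain (343 CPM in Ctnnb1FF, 102 CPM in wild type; adjusted p = 3.02e-06). Adventitial markers summed to 4031 to 6809 CPM in Ctnnb1FF and 6944 to 9127 CPM in wild type, with 4 of 8 called lower. Smooth muscle and pericyte markers summed to 400.6 to 660 CPM in Ctnnb1FF and 243 to 378 CPM in wild type (2 called higher, 1 lower, Cnn1 at 0 in Ctnnb1FF), and 3 mesothelial markers were called lower. The part of these markers in the values was not tested.

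Within groups the genes did not all vary together from animal to animal. After removal of each group's mean, 2 of the 45 pairs had a Pearson r over 0.5 across the 29 libraries and 4 had one under -0.5, with a median of -0.01. Gsn and Actn1 deviated in opposite directions (r = -0.68), and so did Csrp1 and Zyx (-0.59), Zyx and Tgm2 (-0.53) and Gsn and Csrp1 (-0.52). Actn1 and Vcl, partners at adhesions, deviated together (0.61). Gsn and Zyx had r = 0.50 over all libraries, but 0.61 in the Pdgfra libraries and -0.48 in the 6 Gli1 ones. The 2 genes of a pair share library, depth and scaling, so these values are descriptions without a test. The within-group SD of log2 CPM was smallest for Pdlim7 (0.25) and largest for Fblim1 (0.48).

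**Figure D4:**
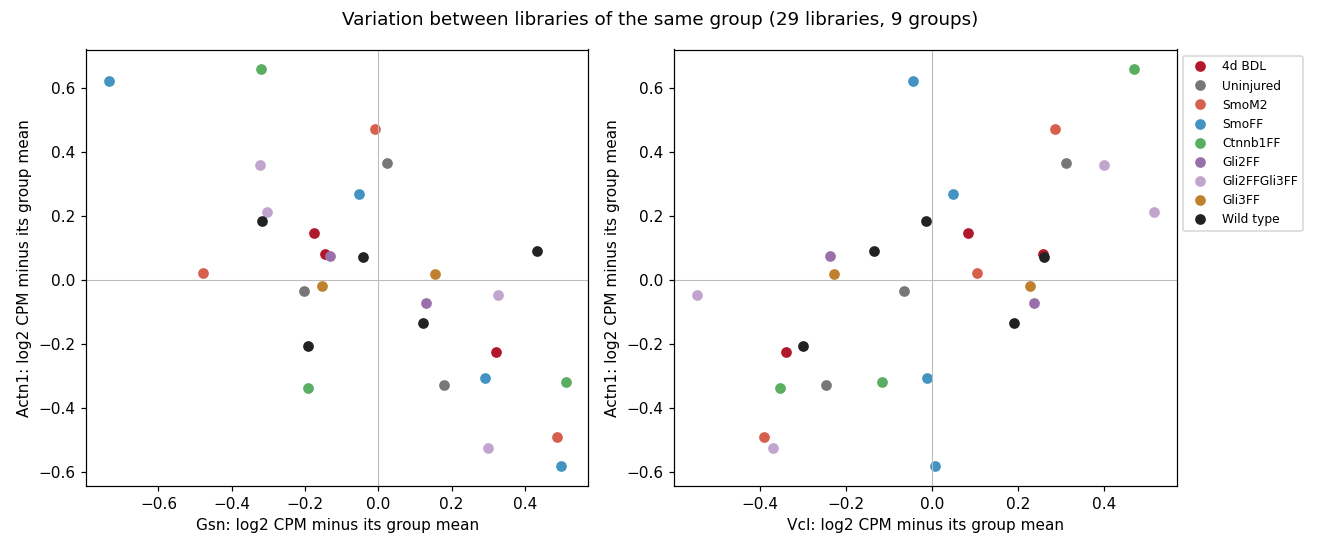
Deviation of each library from its group mean in log2 CPM, Gsn against Actn1 and Vcl against Actn1, 1 point per library coloured by group. Gsn lies lower where Actn1 lies higher (r = -0.68) and Vcl lies higher with Actn1 (r = 0.61) across the 29 libraries.

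Across all 29 libraries, the genes whose log2 CPM followed Gsn most closely among 8334 candidates were Pcolce2 (r = 0.96), Cd34 (0.95), Efemp1 (0.95), Igfbp6 (0.94) and Ablim1 (0.94). Over the 23 Pdgfra libraries alone the values were 0.85, 0.78, 0.83, 0.74 and 0.83 in the same order. Cd34 is one of the 8 adventitial markers, and Ablim1 encodes an actin-binding LIM protein. Those that followed Actn1 most closely were Ttc39b (0.86), Myh9 (0.85), C1qtnf6 (0.82), Col4a2 (0.81) and Hnrnpa1 (0.79). Over the Pdgfra libraries alone they had lower values, 0.51, 0.54, 0.46, 0.44 and 0.34. The 29 libraries include the ligation contrast, in which Gsn and Actn1 differ most, and no p is given.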

How the data were processed

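The values are raw whole-number read counts for each gene, which the authors deposited in 8 tables: 1 with the Gli1 libraries and 1 for each Pdgfra genotype. Per the labels' protocols, cells were sorted by flow cytometry into lysis buffer, cDNA was made by Smart-seq chemistry and libraries by enzymatic fragmentation. Per the submitters' processing notes, the genome build was mm10. Aligner, counter, annotation and use of strand were not given in the sources used here. No molecular identifiers were counted, so PCR copies add to a gene's count, and reads of overlapping or antisense genes may be shared. Columns were matched to samples by title. Each library is an individual animal, per the labels' protocols.

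Tests used edgeR 4.0.16 under R 4.3.3 (quasi-likelihood test after filterByExpr and TMM), with Benjamini-Hochberg adjustment over all genes tested and calls below 0.05. The 6 Gli1 libraries were fitted alone (17150 genes) and the 23 Pdgfra libraries together (24383 genes), with no covariate. All 10 genes passed the filter on low counts in both fits. Standard errors come from the fit. At this depth the number of animals limits precision more than counting does. Groups that do not overlap are those where every library of one lies beyond every library of the other.

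The 10 genes, the role lists and the tests were chosen with earlier results of these data known. Genes named beside the 10 are the targeted genes and Ptch1, up to 4 called genes with the smallest p per list and comparison, and the 5 genes most correlated with Gsn and with Actn1 among protein-coding genes averaging a log2 CPM of 3 or more (prior count 2). Other settings were DESeq2 1.42.0, RLE scaling, the low-count filter dropped or set to 10 counts, a replicate block, fits restricted to the groups compared, and each library left out; the ribosomal RNA locus was also removed, and wild type 1 to 3 or 4 and 5 used as sole controls. The pairing of Gli2FFGli3FF with Gli3FF was added after seeing the levels. Where leaving out a library left 1 in a group, that library was assumed to vary like the other groups. The tests were checked on simulated data. The values of 1 further role list are not reported here by themselves; its genes are part of the counts over all lists.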

Additional observations from a re-analysis of the deposited data

Results flagged for a closer look

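In groups of 4 to 5 libraries, 30 sets of values of the 10 genes were checked for a library far from the others, and 1 stood out. Flna in Gli2FFGli3FF had 152.3 CPM in replicate 1, against 228 to 243 CPM in the other 3 libraries, a gap of 0.835 of the whole range of the group. Chance alone marks about 1 in 20 such sets.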

How the results depend on the processing

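Of 1410 recomputed values of the 10 genes, 1360 counted as unchanged. For the picked genes this meant a move smaller than the within-group SD of log2 CPM. For the tested genes it meant the same side of the threshold, and the same direction where the gene was called. A tested gene called in neither fit counted as unchanged even where its direction turned. Flna after ligation, Tgm2 in SmoM2 and in Gli3FF, and Zyx and Pdlim7 in Ctnnb1FF and Gli2FFGli3FF kept their calls in every setting run. RLE scaling changed no call of the 10 genes. The cause of the other changes was not tested, beyond the fewer libraries of some fits.

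The counts of listed actin genes called moved by over 1.5 times in these settings. DESeq2 called 4 for SmoFF (edgeR 0), 8 for SmoM2 (2), 25 for Gli3FF (11) and 19 for SmoM2 against SmoFF (8). Without the filter on low counts they were 3, 7 and 17 for SmoFF, SmoM2 and Gli3FF. With only the groups compared in the fit they were 6 for SmoM2 and 20 for Gli3FF. With wild type 1 to 3 as controls they were 2 for SmoFF and 0 for SmoM2. With wild type 4 and 5 they were 0 for SmoM2, 27 for Ctnnb1FF (43), 3 for Gli2FF (24), 7 for Gli3FF and 21 for Gli2FFGli3FF (43). With 1 library left out the counts ranged over 23 to 50 after ligation (55 with all), 0 to 1 for SmoFF, 0 to 1 for SmoM2, 27 to 40 for Ctnnb1FF, 1 to 24 for Gli2FF, 5 to 11 for Gli3FF, 31 to 38 for Gli2FFGli3FF and 3 to 10 for SmoM2 against SmoFF. The libraries behind shifts of over 1.5 times included the 3 ligated ones (33, 24 and 23 without replicates 1, 2 and 3) and Ctnnb1FF replicate 2 (27). SmoFF replicate 1 was another, against wild type (1). For SmoM2 against SmoFF they were SmoFF replicates 1, 3 and 4 (5, 3 and 4) and each SmoM2 replicate (3). In Gli2FF and in Gli3FF, leaving out either library of the line also moved the count by over 1.5 times. For SmoM2 against wild type, leaving out any SmoM2 or wild type library did so.

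Same-numbered libraries did not deviate together, so the numbers share no known pairing. With the replicate block the list count was 23 after ligation and 0 for SmoM2, and the adjusted p became 0.107 for Vcl and 0.0962 for Tgm2 after ligation, 0.12 for Flna in Gli2FFGli3FF, and 0.0539 for Flna and 0.0876 for Pdlim7 in Gli2FF. Other calls lost were Flna in Gli2FFGli3FF without the ribosomal RNA locus (0.0734) and with wild type 1 to 3 (0.247) or 4 and 5 (0.113), Flna in Gli2FF with the same controls (0.0682 and 0.11), and Pdlim7 in Gli2FF with no filter (0.0584) and with wild type 4 and 5 (0.105). DESeq2 called Pdlim7 after ligation (0.0197), Vcl in Gli2FF (0.0417), Flna in Gli3FF (0.0376) and against SmoFF in SmoM2 (0.0221), and Tgm2 in Gli2FFGli3FF (0.0381). Fits of only the groups compared called Flna in SmoM2 (0.0476) and Gli3FF (0.0464), and no filter called it in SmoM2 against SmoFF (0.0176). Palld in Gli3FF (log2 -0.11) was 0.34 without Gli3FF replicate 1 and -0.77 without replicate 2.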
